A study of Mus musculus with 29 samples.

Results

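Ribosome biogenesis and nucleolar genes were followed through 4 RNA-seq experiments in mouse embryonic stem (ES) cells. The set held 33 genes, picked by name from what their proteins do in the nucleolus, out of 24394 genes listed in each table. All 33 were found, and all passed the filter on low counts in every comparison, with 640 to 60701 reads per gene and library. By chromosome, 5 members lie on chromosome 1 (Rrs1, Wdr75, Nop58, Wdr12 and Ncl), 2 on chromosome 19 (Rrp12 and Nolc1) and 26 on other chromosomes.

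The nucleolus is where ribosomes are made. RNA polymerase I transcribes the ribosomal RNA (rRNA) precursor, small nucleolar ribonucleoproteins (snoRNPs) guide its chemical modification, and large assemblies of processing factors cut and fold it into the precursors of the small and large ribosomal subunits. Fast-growing cells such as ES cells devote much of their transcription to this pathway, and many of its protein-coding genes are textbook targets of the transcription factor MYC.

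The study concerns TRIM66, a chromatin reader, DAX1, an orphan nuclear receptor encoded by Nr0b1, and Dux, a transcription factor of the early embryo, in ES cells of strain 129/Ola grown on gelatin in serum medium. In the first experiment, WT cells were set beside cells of 2 lines with the genotype Trim66 Knockout, called KO1 and KO2 here. In the second, cells overexpressing TRIM66 fused to GFP (GFP-TRIM66) were set beside cells overexpressing GFP from the empty vector (GFP-EV). In the third, Dax1 knockdown by either of 2 hairpins, sh1 and sh2, was set beside its control (CTR-shDax1), and in the fourth a Dax1 Dux double knockdown was set beside its own control (CTR-Dax1-Dux-KD), both controls being labelled WT. Each of the 10 groups had 2 libraries, all untreated otherwise, and the labels do not say whether the 2 came from separate cultures, so p-values measure the spread between these libraries, which may be technical. The labels do not state whether each knockout line is a single clone.

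The libraries held 12483949 to 17365296 counts each. All 8 ES cell markers were above 1 CPM, the read count scaled to library size, in every library, with a summed level of 2490 to 8361 CPM, lowest in the 4 libraries of the double knockdown experiment (2490 to 3932 CPM). Of 10 fibroblast markers, 4 to 7 reached 1 CPM and their summed level was 28.6 to 129 CPM. Lum, Dcn and Postn, genes of the fibroblast matrix, were at or near 0 throughout. Nr0b1 was lower with both hairpins (log2 fold change -1.17, standard error (SE) 0.05, adjusted p = 7.6e-17). In the double knockdown its log2 fold change was -0.90 (SE 0.23), with an adjusted p of 0.275. The control of that experiment was already low in Nr0b1, at 41.5 CPM, and the knockdown was at 22.3. In the separately scaled table of the Dax1 knockdown it was at 153.9 CPM in the control, 60.4 with sh1 and 77.6 with sh2. Trim66 rose under GFP-TRIM66 (log2 fold change 6.90, SE 0.28, adjusted p = 0.00054). In both lines labelled knockout its count was higher than in WT (0.90 CPM in WT, 2.63 in KO1 and 2.66 in KO2, log2 fold change 1.55, SE 0.29, adjusted p = 0.0048), so the knockout was not visible as a loss of counts, and these are called the libraries labelled knockout. Adjusted p-values here are from edgeR's quasi-likelihood test with Benjamini-Hochberg adjustment over all genes and transposable elements of an experiment, and a gene is called at an adjusted p under 0.05.

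**Figure D1:**
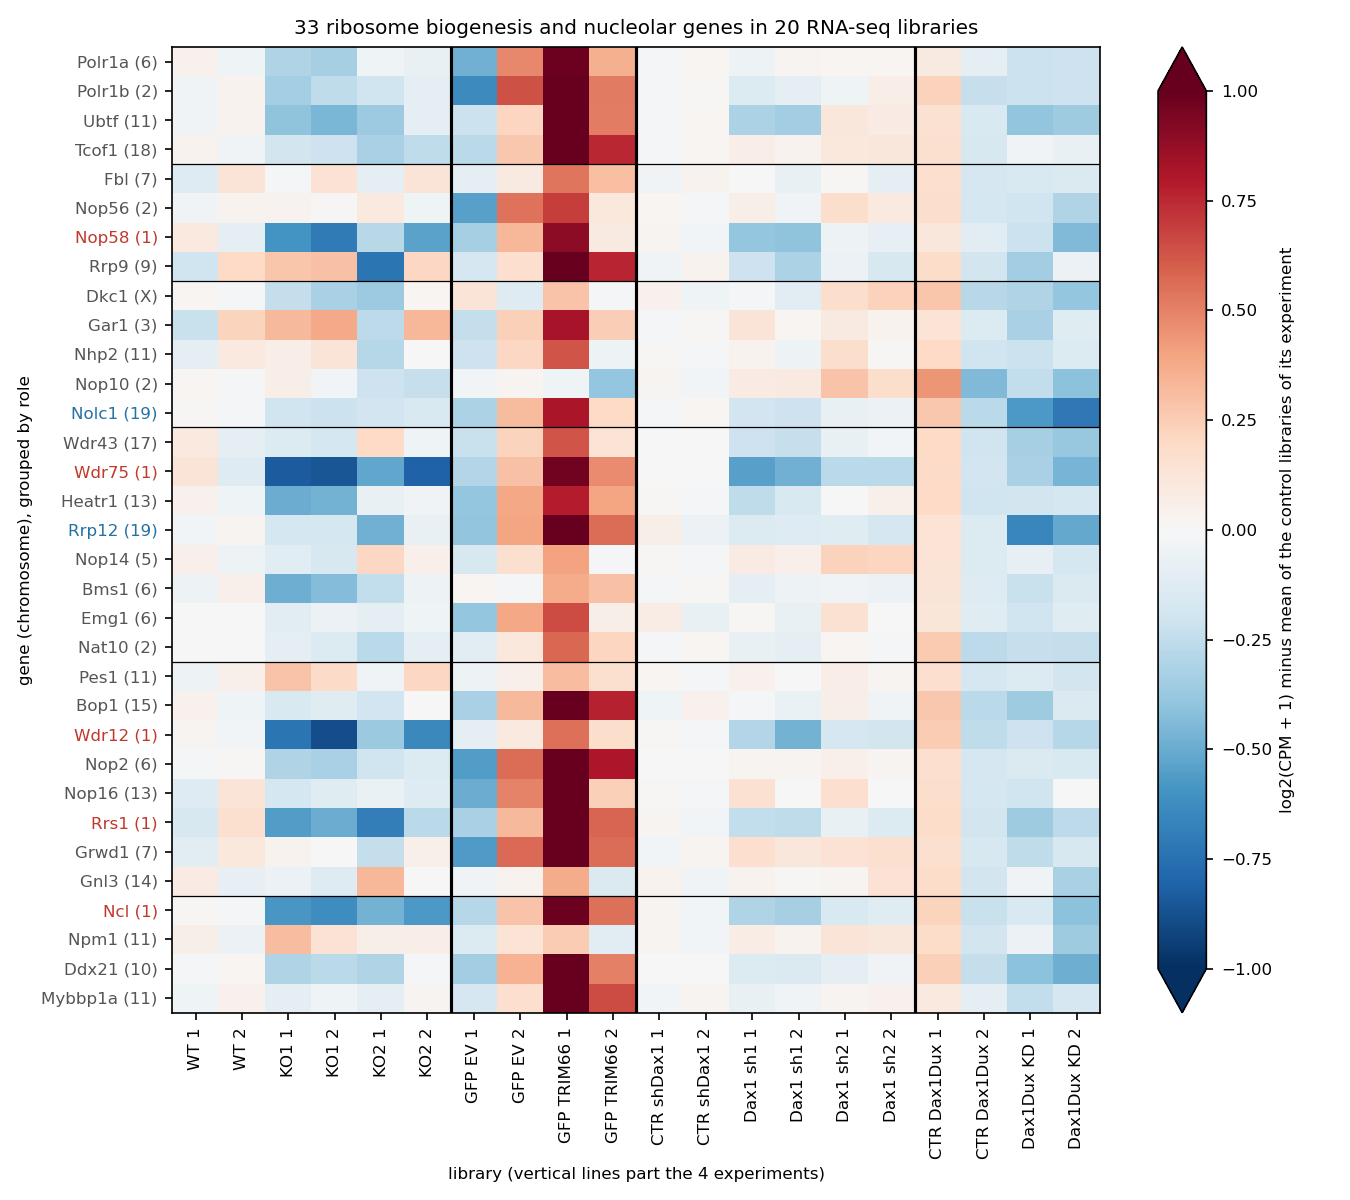
Heat map of the 33 members (rows, by role, with their chromosome) in the 20 libraries (columns). Colour is log2(CPM + 1) minus the mean of the 2 control libraries of the same experiment, cut off at 1 in either direction. The 5 chromosome 1 members are blue in all 4 libraries labelled knockout, the first GFP-TRIM66 library is red for 32 of 33 members, and the first control library of the double knockdown is above the control mean for all 33.

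In the libraries labelled Trim66 knockout, 10 of 33 members fell and 0 rose with libraries scaled over all genes, and 5 fell with each chromosome scaled on its own. Of all features tested, 10.7% fell (13.5% of genes above 8 CPM), so 10 in 33 lies above the background. The members' median log2 fold change was -0.15, beside 0.01 over all features. All 5 chromosome 1 members were among the 10, and they held the 5 largest decreases. No member was called higher by edgeR, at an unadjusted p under 0.05 (0 members) or by DESeq2 (0 members).

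Wdr75, a protein of the small subunit processome, was measured at 325 and 272 CPM in WT, 167 and 164 in KO1, and 207 and 169.9 in KO2. Its log2 fold change was -0.76 (SE 0.10, adjusted p = 0.00077), and no knockout library reached either WT library. Ncl, which encodes nucleolin, an abundant RNA-binding protein of the nucleolus, was at 4136 and 4073 CPM in WT, 2744 and 2673 in KO1, and 2964 and 2756 in KO2. The groups lay far apart here too (log2 fold change -0.56, SE 0.08, adjusted p = 0.00077). Wdr12, a partner of Pes1 and Bop1 in large subunit assembly, was at 208 and 199.8 CPM in WT, 123 and 109.9 in KO1, and 157 and 130.3 in KO2. Its log2 fold change was -0.66 (SE 0.09, adjusted p = 0.0011). Nop58, a scaffold protein of box C/D snoRNPs, fell by 0.53 on the log2 scale (SE 0.10, adjusted p = 0.0040), from 632 and 553 CPM in WT to 389.7 and 361 in KO1 and 488 and 408 in KO2. Rrs1, an assembly factor of the large subunit, was at 134 and 168 CPM in WT, 102 and 106 in KO1, and 92.7 and 124 in KO2, and fell by 0.51 (SE 0.13, adjusted p = 0.017).

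These 5 decreases were of the size seen over the whole of chromosome 1. Among its 538 genes above 8 CPM the median log2 fold change was -0.55, with 382 called lower and 16 higher, while the medians of the other chromosomes lay between -0.06 and 0.12. When each chromosome was scaled on its own genes, none of the 5 was called: their log2 fold changes became -0.22 for Wdr75 (adjusted p = 0.13), -0.13 for Wdr12, -0.03 for Ncl, 0.001 for Nop58 and 0.02 for Rrs1. The number of chromosome copies in the cultures was not measured here. With this scaling 5 members remained lower, against 10.1% of all genes tested: Ubtf, Heatr1, Bms1, Nop2 and also Bop1, which had no call before. Bop1, on chromosome 15, went from -0.11 to -0.29 (adjusted p = 0.025), with a median of 0.12 among the 403 expressed genes of that chromosome (0.27 in KO1 and -0.02 in KO2).

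The promoters of 3 chromosome 1 members and of 3 members that fell from other chromosomes are printed as the 250 bases before the start, from RefSeq on build GRCm38.p6. In all, 27 of 33 members had an entry. The printed ones are only some of the members called lower. They show which of 3 motifs stand there: CACGTG (the MYC E-box), CCGGAAG (an ETS core) and CCAAT. Both strands were searched, and none of the motifs contains another. Capitals mark a match. The chromosome 1 promoters lie at chr1:45794916-45795165 (plus strand), chr1:59684756-59685005 (plus strand) and chr1:86359456-86359705 (minus strand).
Wdr75: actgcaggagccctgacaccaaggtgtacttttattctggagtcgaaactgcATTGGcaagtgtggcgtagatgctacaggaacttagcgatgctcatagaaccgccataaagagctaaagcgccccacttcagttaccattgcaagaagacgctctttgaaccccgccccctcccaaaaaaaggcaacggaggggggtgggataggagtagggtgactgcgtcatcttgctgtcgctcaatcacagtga
Nop58: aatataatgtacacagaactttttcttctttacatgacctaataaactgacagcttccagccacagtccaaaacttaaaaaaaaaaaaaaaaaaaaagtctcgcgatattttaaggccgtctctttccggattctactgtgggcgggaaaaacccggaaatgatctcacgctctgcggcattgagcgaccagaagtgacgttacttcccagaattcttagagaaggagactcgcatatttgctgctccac
Ncl: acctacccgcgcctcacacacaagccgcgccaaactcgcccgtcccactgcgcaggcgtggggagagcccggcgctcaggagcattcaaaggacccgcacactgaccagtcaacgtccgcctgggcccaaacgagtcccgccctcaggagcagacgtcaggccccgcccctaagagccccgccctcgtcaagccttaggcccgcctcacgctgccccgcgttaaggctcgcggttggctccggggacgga
Of these, Wdr75 held a CCAAT box, read as ATTGG on the printed strand, 198 bases before the start, and Nop58 and Ncl held none of the motifs. Heatr1, at chr13:12395125-12395374 (plus strand), Bms1, at chr6:118419418-118419667 (minus strand), and Nop2, at chr6:125131633-125131882 (plus strand), are the others.
Heatr1: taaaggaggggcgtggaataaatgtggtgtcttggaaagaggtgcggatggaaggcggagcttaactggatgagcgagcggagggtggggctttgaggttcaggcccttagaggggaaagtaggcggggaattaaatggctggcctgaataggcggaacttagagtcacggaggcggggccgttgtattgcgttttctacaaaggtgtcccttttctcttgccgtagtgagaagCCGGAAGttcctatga
Bms1: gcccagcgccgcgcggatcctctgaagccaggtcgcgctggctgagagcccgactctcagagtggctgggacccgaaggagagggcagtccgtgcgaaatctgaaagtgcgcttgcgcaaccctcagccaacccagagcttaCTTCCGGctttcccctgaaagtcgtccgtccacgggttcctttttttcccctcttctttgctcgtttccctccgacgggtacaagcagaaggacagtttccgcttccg
Nop2: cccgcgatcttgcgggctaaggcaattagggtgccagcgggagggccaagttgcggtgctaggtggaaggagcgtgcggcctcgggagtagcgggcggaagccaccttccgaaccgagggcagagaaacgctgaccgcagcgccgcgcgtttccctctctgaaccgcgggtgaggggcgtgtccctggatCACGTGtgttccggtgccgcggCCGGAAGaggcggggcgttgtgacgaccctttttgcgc
An ETS core stood 16 bases before the start of Heatr1, 108 before that of Bms1 (as CTTCCGG) and 38 before that of Nop2. These 3 do not stand for all members that fell: Ubtf, also called lower, held a CCAAT box and no ETS core, and is not printed. Over the 27 members the ETS core was found in 8 (Bms1, Emg1, Gar1, Grwd1, Heatr1, Nhp2, Nolc1 and Nop2), beside 7.83% of all 27025 promoters in the table. Of the 8, Emg1, Gar1, Grwd1, Nhp2 and Nolc1 were not called lower in the libraries labelled knockout. CACGTG was found in 1 member, Nop2, 60 bases before its start, beside 6.86% of all promoters, and CCAAT in 6 members, beside 37.5%. A match is a description of the letters and was not tested for binding.

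The other 5 members called lower were smaller changes. Ubtf, the upstream binding factor that opens rRNA genes to RNA polymerase I, was at 389 and 410.4 CPM in WT, 302 and 291 in KO1, and 311 and 374 in KO2 (log2 fold change -0.33, SE 0.09, adjusted p = 0.027). Bms1, a GTPase of the small subunit processome, was at 234 and 252 CPM in WT, 173 and 180.1 in KO1, and 205 and 234 in KO2 (-0.30, SE 0.09, adjusted p = 0.028). Heatr1, a processome protein also linked to rRNA transcription, was at 354 and 335 CPM in WT, 244 and 249 in KO1, and 328 and 336 in KO2 (-0.27, SE 0.07, adjusted p = 0.028). In Heatr1 the second KO2 library lay inside the WT range, and in Bms1 it lay just under the lower WT library. Nop2, an rRNA methyltransferase, fell by 0.24 (SE 0.07, adjusted p = 0.041) and Tcof1, which encodes treacle, a cofactor of RNA polymerase I, by 0.24 (SE 0.08, adjusted p = 0.043). DESeq2 did not call Nop2 (adjusted p = 0.054).

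By role, all 4 RNA polymerase I genes lay below 0 and 2 were called, with Polr1a at -0.19 (adjusted p = 0.102) and Polr1b at -0.22 (adjusted p = 0.0702) below the threshold. Of the 8 small subunit genes 3 were called lower (Heatr1, Bms1 and, on chromosome 1, Wdr75) and all 8 lay below 0. Of the 8 large subunit genes 3 were called lower (Nop2 and, on chromosome 1, Wdr12 and Rrs1). Of the 4 box C/D genes only Nop58, of chromosome 1, was called. In the 5 box H/ACA genes 0 were called, and log2 fold changes ran from -0.22 (Dkc1, the pseudouridine synthase) to 0.19 (Gar1, one of its partners). Beside these counts, 53.5% of genes above 8 CPM lay below 0 and 13.5% were called lower. Differences between roles were not tested. Npm1, which encodes nucleophosmin, was at 0.15 without a call. The 10 calls dropped to 4 without WT replicate 1 (background 3.6%), WT replicate 2 (background 4.62%) or KO1 replicate 1 (background 5.87%) and to 5 without KO1 replicate 2 (background 5.87%), and rose to 17 without KO2 replicate 2 (background 18.6%).

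The lines labelled knockout had members' medians of -0.16 (KO1) and -0.15 (KO2) against WT. In the tests against WT, KO1 had 11 members lower (background 13.8%), with all 5 of chromosome 1 among them, and KO2 had 4 (background 5.29%). The 4 in KO2, Ncl, Wdr75, Wdr12 and Nop58, were all on chromosome 1 and also called in KO1. Without 1 library at a time these counts ran from 4 to 16 in KO1 and from 1 to 14 in KO2. No member was called higher in either line. At an unadjusted p under 0.05 the members higher were 2 in KO1 and 0 in KO2, and DESeq2 called 0 in both. KO1 alone had calls for Polr1a, the largest subunit of RNA polymerase I (195 and 183 CPM in WT, 153 and 150.1 in KO1, 183 and 179.7 in KO2), and Polr1b, its second largest (142 and 149 CPM in WT, 115 and 122 in KO1, 127 and 136 in KO2). Their log2 fold changes were -0.32 (adjusted p = 0.021) and -0.30 (adjusted p = 0.034) in KO1, and -0.06 and -0.15 in KO2, without a call.

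The direct test of KO2 against KO1 called 2 of 33 members, both higher in KO2, a smaller share than the 10.1% of all features that were higher. The count was 0 without either KO1 library and 1 without either WT library, 6 without KO2 replicate 1 and 8, with 5 lower, without KO2 replicate 2. With a replicate block it was 6 higher and 1 lower. For none of these alternative fits is the share of all features given here. Heatr1 differed by 0.43 (SE 0.09, adjusted p = 0.0076): it fell by 0.48 in KO1 and was at -0.05 in KO2. Bms1 differed by 0.31 (SE 0.10, adjusted p = 0.047): it fell by 0.46 in KO1 and was at -0.15 in KO2. The difference in Polr1a was 0.26 (adjusted p = 0.059) and Ubtf, Nop2 and Polr1b, which fell in KO1 too, had no called difference. With each chromosome scaled on its own, the difference in Heatr1 was 0.37 (adjusted p = 0.014) and that in Bms1 lost its call (adjusted p = 0.087). The KO2 libraries were themselves unlike each other: the members' median against WT was -0.21 in the first and -0.04 in the second, and Rrp9, a protein of box C/D snoRNPs, stood at 109 and 209 CPM in them. Without KO2 replicate 2, KO2 had 14 members lower (background 13.9%). In KO1 the summed fibroblast markers were 109.6 and 111 CPM, beside 71.6 and 72.3 in WT and 67.0 and 71.4 in KO2. Of the 10, 5 to 6 reached 1 CPM in KO1 and 4 in WT. Fbln1 was higher in KO1 (73.3 and 72.7 CPM, 27.7 and 30.7 in WT) and Col1a1 too (7.6 and 6.7 CPM, 0.65 and 0.87 in WT). Thy1 was lower (21.3 and 20.6 CPM, 32.8 and 30.5 in WT), as was Pdgfra (1.3 and 0.82 CPM, 4.7 and 3.96 in WT), and Lum, Dcn and Postn were at or near 0. The part of these markers in the result was not tested.

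**Figure D2:**
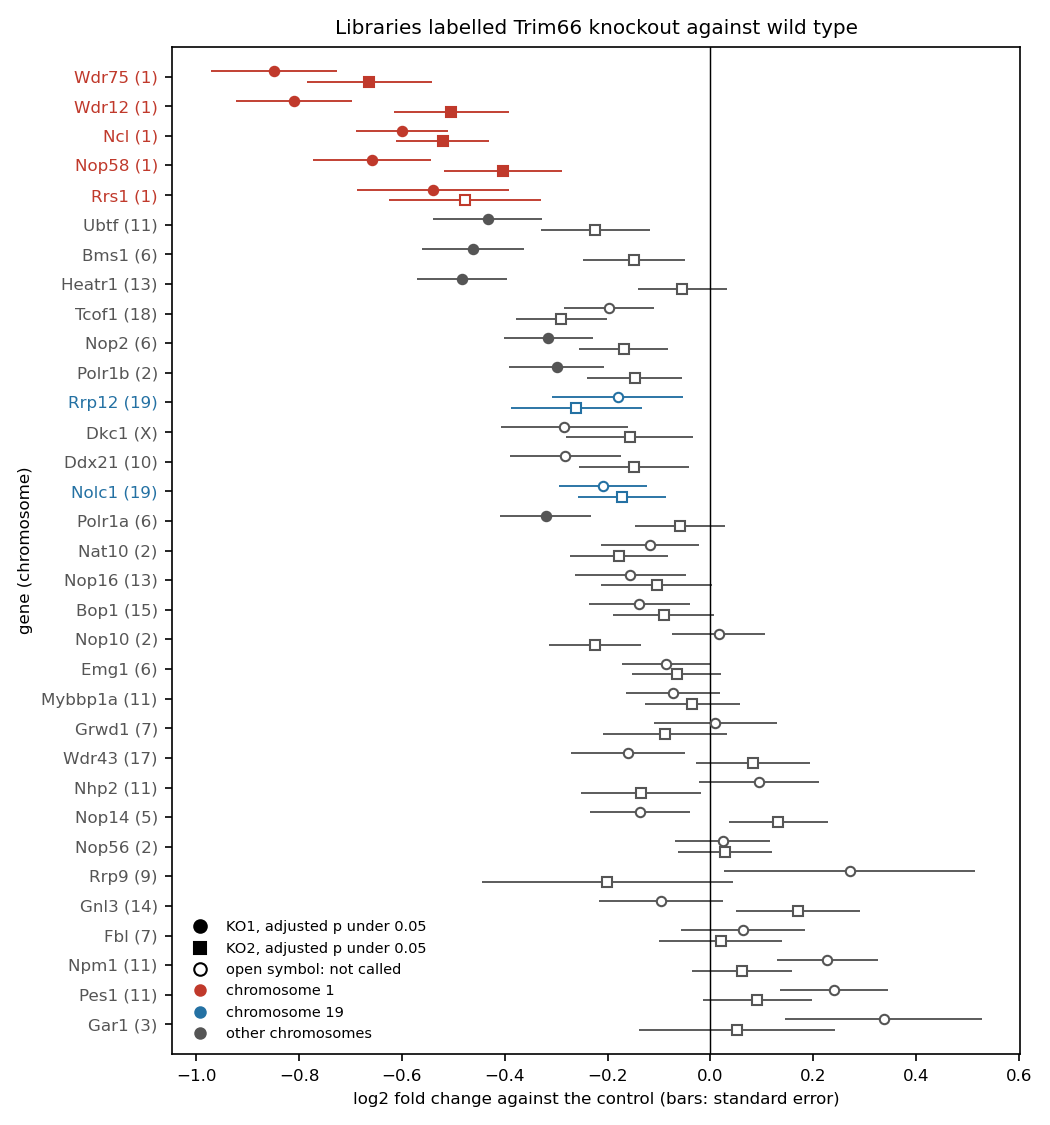
Log2 fold change against WT of each member in KO1 (circles) and KO2 (squares), with bars for the standard error (2 libraries a group) and filled symbols where the adjusted p is under 0.05. The 5 chromosome 1 members (red) lie lowest in both lines, and Heatr1 and Bms1 lie apart between the lines.

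Under GFP-TRIM66, 32 of 33 members lay above the vector, with a median log2 fold change of 0.55, where 48.5% of all features and 60.5% of genes above 8 CPM lay above 0. No member was called: the replicates of each group were far apart, and over all features 0.0133% were called higher. At an unadjusted p under 0.05, 11 members were higher and 0 lower, and DESeq2 called 2, Rrp9 (adjusted p = 0.031) and Bop1 (adjusted p = 0.041). The shares of all features at these cutoffs are not given here, so the 11 and the 2 have no background. In 18 of 33 members both GFP-TRIM66 libraries lay above both vector libraries, a larger share than the 24.1% of all features.

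Nop2 had the highest log2 fold change, 1.09 (SE 0.40, adjusted p = 0.252), from 79.7 and 175 CPM in the vector libraries to 334 and 207 CPM. Bop1, which joins Pes1 and Wdr12 in large subunit assembly, was at 99.9 and 158 CPM with the vector and at 328 and 214 with GFP-TRIM66 (1.08, SE 0.31, adjusted p = 0.192). In both genes the groups do not overlap, but the vector libraries alone differ by over 1.5 times. Rrp9 was at 122 and 154 CPM with the vector, and at 318 and 234 with GFP-TRIM66 (0.996, SE 0.25, adjusted p = 0.166), and Tcof1 at 191 and 278, and 518 and 390.1 (0.95, SE 0.27, adjusted p = 0.192). Mybbp1a, a nucleolar binding protein of MYB, was at 448 and 566 CPM, and 1025 and 792 (0.84, SE 0.24, adjusted p = 0.192). Nop10, a small partner of Dkc1, was the one member below 0 (-0.21, SE 0.22), at 199 and 206 CPM with the vector and 196 and 155 with GFP-TRIM66, and Npm1 stood at 0.08 (SE 0.24).

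The spread ran through the whole set. The first vector library lay below the vector mean for 31 of 33 members, so that its median was -0.27 on the log2(CPM + 1) scale, and the second lay 0.27 above. The first GFP-TRIM66 library was at a median of 0.82 and the second at 0.29, close to the second vector library. Without GFP-EV replicate 2, 10 members were called higher (background 3.2%) and the median became 1.01, and without GFP-TRIM66 replicate 2, 5 were called (background 2.26%). Without GFP-EV replicate 1 the median was 0.29 and without GFP-TRIM66 replicate 1 it was also 0.29. The fibroblast markers summed to 129 and 61.9 CPM with the vector and to 54.1 and 91.9 with GFP-TRIM66, so the library lowest for the members was the highest for these markers. In that library Fbln1 was at 73.8 CPM, Thy1 at 31.9 and Pdgfrb at 16.3, while Col1a1 was at 3.1 and Lum, Dcn and Postn were at 0. The part of the markers was not tested.

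In the Dax1 knockdown, replicates were close and small changes could be called. Against the control, 11 members fell and 4 rose over the mean of both hairpins, where 17.8% of all features fell (24.1% of genes above 8 CPM) and 16.8% rose. The members' median log2 fold change was -0.02. All 7 members on chromosomes 1 and 19 were among the 11. Of the 26 members on other chromosomes 4 fell and 4 rose, shares near those of all features.

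Wdr75 was again the member with the largest decrease (-0.39, SE 0.04, adjusted p = 1.6e-08), at 253 and 250.3 CPM in the control, 173 and 180.1 with sh1, and 208 and 209 with sh2. Wdr12 was at 174 and 171 CPM in the control, 139.9 and 124 with sh1, and 153 and 152 with sh2 (-0.28, SE 0.05, adjusted p = 3e-05). Ncl was at 3790.3 and 3669 CPM in the control, 3022.5 and 2956 with sh1, and 3353 and 3427 with sh2 (-0.23, SE 0.03, adjusted p = 5.1e-07). In all 3 genes both hairpins lie below the control, with sh2 between sh1 and the control. Nop58 fell by 0.23 (SE 0.04, adjusted p = 1.2e-05) and Rrs1 by 0.18 (SE 0.04, adjusted p = 0.0017). On chromosome 19, Nolc1, which encodes a chaperone of snoRNPs, was at 544 and 561 CPM in the control, 484 and 478 with sh1, and 523 and 531 with sh2 (-0.13, SE 0.04, adjusted p = 0.0049). Rrp12, a factor of subunit export, was at 159.6 and 147 CPM in the control, 139.5 and 139.9 with sh1, and 141 and 136 with sh2 (-0.14, SE 0.05, adjusted p = 0.017), and DESeq2 did not call it (adjusted p = 0.052).

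Both chromosomes were shifted as wholes. The median log2 fold change was -0.26 over 538 expressed genes of chromosome 1 and -0.28 over 339 of chromosome 19. Scaled within each chromosome, 6 members rose (background 16.9%) and 5 fell (background 17.2%). Nolc1 and Rrp12 then had log2 fold changes of 0.13 (adjusted p = 0.0054) and 0.12 (adjusted p = 0.036), in the opposite direction, since they had fallen less than the genes around them. Of the chromosome 1 members Wdr75 stayed called (-0.15, adjusted p = 0.0036), and Nop58, Ncl, Wdr12 and Rrs1 lay between -0.04 and 0.06 without a call.

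**Figure D3:**
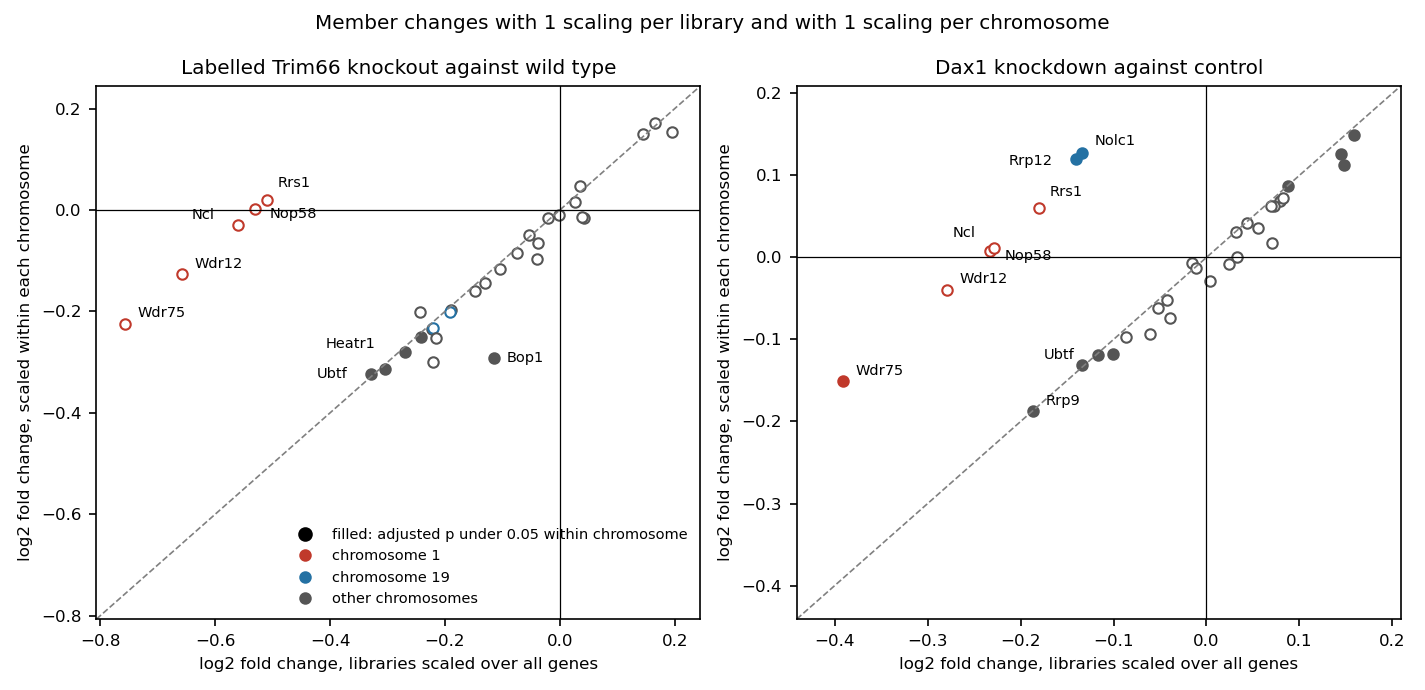
Log2 fold change of each member with 1 scaling over all genes (horizontal axis) and with each chromosome scaled on its own genes (vertical axis), for the libraries labelled Trim66 knockout (left) and the Dax1 knockdown (right). Members of chromosome 1 (red) leave the diagonal in both panels to lie above it, from -0.22 (Wdr75) to 0.02 on the left and from -0.15 (Wdr75, still called) to 0.06 on the right, and those of chromosome 19 (blue) leave it on the right, where they lie at 0.13 and 0.12.

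Away from chromosomes 1 and 19, 4 members fell. Rrp9 was at 254 and 266 CPM in the control, 225 and 209 with sh1, and 249 and 233 with sh2 (log2 fold change -0.19, SE 0.04, adjusted p = 0.0014). Wdr43, a processome protein, fell by 0.13 (SE 0.04, adjusted p = 0.0087), Ubtf by 0.12 (SE 0.04, adjusted p = 0.017) and Ddx21, an RNA helicase of the nucleolus, by 0.10 (SE 0.03, adjusted p = 0.025). Nop10 rose by 0.16 (SE 0.05, adjusted p = 0.0081), at 137 and 132 CPM in the control, 142 and 144 with sh1, and 164 and 152 with sh2. Grwd1, a histone-binding protein tied to large subunit assembly, rose by 0.15 (SE 0.04, adjusted p = 0.0090), Nop14, of the small subunit processome, by 0.14 (SE 0.04, adjusted p = 0.0094), and Npm1 by 0.09 (SE 0.03, adjusted p = 0.022). Without the first control library 7 members fell (background 12%) and 1 rose (background 10.9%), and without the second 6 fell (background 11.8%) and 1 rose (background 10.3%).

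The hairpins were also compared with the control 1 by 1 and with each other. With sh1, 12 members fell and 1 rose (background 21.2% and 22.3%). The 12 included all 5 members on chromosome 1 and both on chromosome 19. With each chromosome scaled on its own, 8 fell and 1 rose with sh1, and the share of all features in that fit is not given here. With sh2, 4 fell and 6 rose (background 12.5% in either direction). The sh2 counts were 0 and 6 with each chromosome scaled on its own, 2 and 4 by DESeq2, and 1 to 4 and 2 to 6 without 1 library at a time. Tested directly, 15 members were higher with sh2 than with sh1 and 0 were lower, where 18.2% of all features were higher (23.3% of genes above 8 CPM). None was lower at an unadjusted p under 0.05 or by DESeq2, which called 10 higher. In 31 of 33 members the value with sh2 was above that with sh1, with a median difference of 0.10. Genes above 8 CPM were shifted the same way, with 56.7% above 0 and a median of 0.04.

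Ubtf had the largest difference, 0.43 (SE 0.04, adjusted p = 8.5e-09): it was at 414 and 426 CPM in the control, 337 and 329 with sh1, and 455 and 444 with sh2, so that it fell by 0.33 with sh1 and stood at 0.10 with sh2 (adjusted p = 0.097). Dkc1 was at 305 and 287 CPM in the control, 292 and 274 with sh1, and 334 and 348 with sh2. It rose with sh2 (0.20, adjusted p = 0.0022) and was at -0.06 with sh1 (adjusted p = 0.298), and the hairpins differed by 0.27 (SE 0.05, adjusted p = 6.8e-05). Nop58 was at 565 and 544 CPM in the control, 424 and 419 with sh1, and 534 and 524 with sh2, a difference of 0.33 (SE 0.04, adjusted p = 6.5e-07). Heatr1 was at 325 and 321 CPM in the control, 271 and 290.3 with sh1, and 325 and 335 with sh2, a difference of 0.23 (SE 0.05, adjusted p = 0.00027). For Ubtf, Nop58 and Heatr1 both sh1 libraries lie under every other library of the experiment.

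Of the other members called between hairpins, Ncl, Wdr75, Wdr12 and Rrs1 (chromosome 1) differed by 0.15 to 0.24, beside a median of 0.16 over that chromosome's expressed genes. With each chromosome scaled on its own, 11 members were still higher with sh2 (background 18.2%), and these 4 were not called. Without Dax1-sh1 replicate 2 the count scaled over all genes was 7. The sh1 libraries differed from the sh2 libraries in other ways. Nr0b1 was at 60.4 CPM with sh1 and 77.6 with sh2 (log2 difference 0.36, SE 0.06, adjusted p = 4.6e-05). The 8 ES cell markers summed to 5067 to 5141 CPM with sh1, 6778 to 7030 with sh2 and 6505 to 6575 in the control. The fibroblast markers summed to 78.6 and 88.6 CPM with sh1, 53.9 and 55.0 with sh2, and 46.4 and 50.1 in the control. Of the 10, 6 to 7 reached 1 CPM with sh1 and 5 with sh2. Col1a1 was at 23.0 and 25.0 CPM with sh1 and at 2.5 and 2.3 with sh2, and Col1a2 and Col3a1 were higher with sh1 as well. Pdgfra was lower with sh1 (0.77 and 1.6 CPM, 2.6 and 2.7 with sh2), Thy1 was at 9.9 and 11.3 CPM with sh1 and slightly above both values with sh2, and Lum, Dcn and Postn were at or near 0. The part of these markers in the result was not tested.

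**Figure D4:**
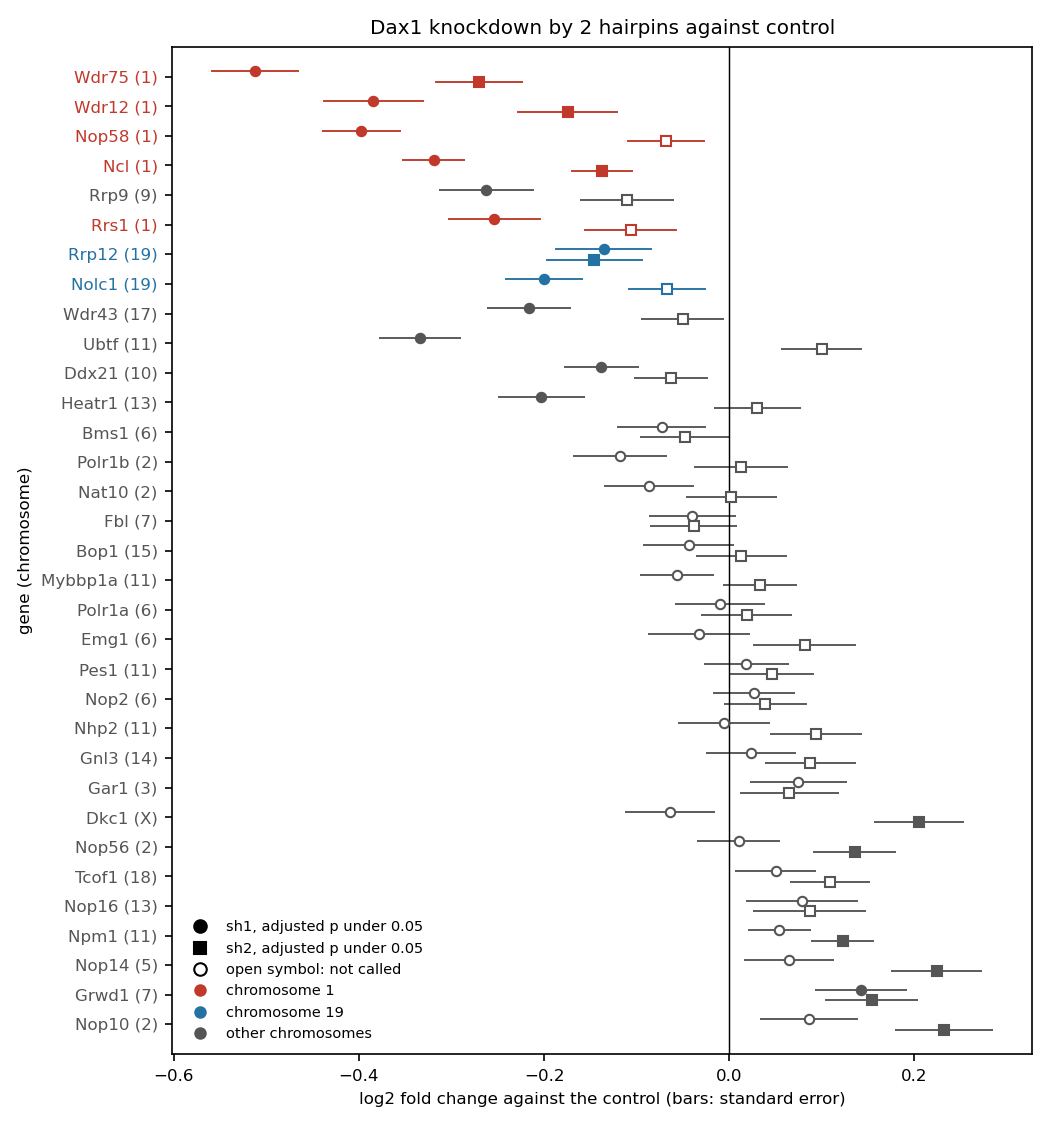
Log2 fold change against the control of each member with sh1 (circles) and sh2 (squares), with bars for the standard error (2 libraries a group) and filled symbols where the adjusted p is under 0.05. The sh2 value lies to the right of the sh1 value in 31 of 33 members (56.7% of genes above 8 CPM), with the widest gap for Ubtf, at -0.33 and 0.10.

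In the Dax1 Dux double knockdown all 33 members lay below the control, with a median log2 fold change of -0.23, where 50.4% of all features and 54.6% of genes above 8 CPM lay below 0. edgeR called none, as it called few features at all (0.0139% lower). At an unadjusted p under 0.05, 4 members were lower and 0 higher, and DESeq2 called 0. The share of all features at that unadjusted cutoff is not given here, so the 4 have no background. In 14 of 33 members both knockdown libraries lay below both control libraries, a larger share than the 22.8% of all features.

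The members with the smallest p were those of chromosome 19. Nolc1 was at 627 and 432 CPM in the control and at 349.5 and 316 in the knockdown (-0.67, SE 0.20, adjusted p = 0.338). Rrp12 was at 210.1 and 174 CPM in the control and at 121 and 134 in the knockdown (-0.59, SE 0.15, adjusted p = 0.273). The median over the 339 expressed genes of chromosome 19 was -0.51, and scaled within the chromosome the values became -0.18 and -0.11. Ubtf (316 and 256 CPM, then 216 and 222) was at -0.38 (SE 0.15, adjusted p = 0.448) and Ddx21 (881 and 630.4 CPM, then 560.3 and 530 CPM) at -0.47 (SE 0.19, adjusted p = 0.451). The 5 chromosome 1 members lay between -0.41 and -0.27, beside a median of -0.10 over that chromosome.

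The control libraries decide these values. The first lay above the second for all 33 members, by a median of 0.18 above and below their mean on the log2(CPM + 1) scale, and the knockdown libraries, at -0.22 and -0.21, lay close to the second. Without the first control library 2 members were called lower (background 3.52%) and the median was -0.04. Without the second, 29 were called lower (background 14.2%) and the median was -0.39. The ES cell markers summed to 3932 and 2774 CPM in the controls and to 2490 and 2763 in the knockdown. The fibroblast markers summed to 28.6 and 36.1 CPM in the controls and 101 and 113 in the knockdown, where Col1a1 was at 45.5 and 54.9 CPM and Lum at or near 0, and their part was not tested.

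**Figure D5:**
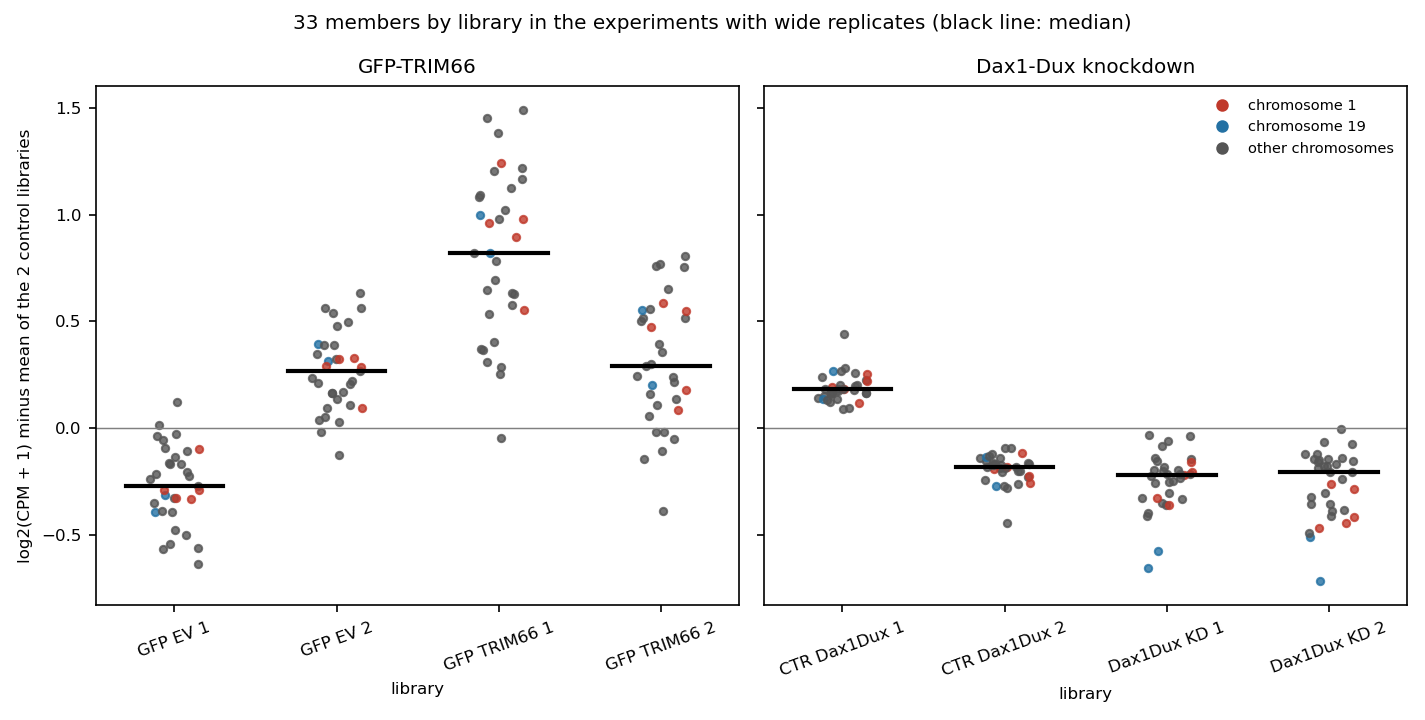
Each point is a member in a library, as log2(CPM + 1) minus the mean of the 2 control libraries of its experiment, for GFP-TRIM66 (left) and the double knockdown (right), and the black line is the median. The 2 vector libraries lie at -0.27 and 0.27, with GFP-TRIM66 at 0.82 and 0.29. The 2 controls on the right lie at 0.18 and -0.18, with the knockdown at -0.22 and -0.21.

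The effect of the double knockdown was compared with that of the Dax1 knockdown alone in a fit of all 20 libraries. The controls of these experiments were unlike in Nr0b1 itself, at 41.5 CPM in CTR-Dax1-Dux-KD and 153.9 in CTR-shDax1. The difference had a median of -0.18 over the members, and 30 of 33 were below 0. Of genes above 8 CPM, 46.3% were below 0, with a median of 0.02. No member was called (0.124% of all features were lower), 0 members passed an unadjusted p under 0.05, and DESeq2 called 0. Without the first control library of the double knockdown the median was 0.007. Nolc1 had a difference of -0.50 (SE 0.27) and Rrp12 one of -0.42 (SE 0.27), both on chromosome 19.

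Set side by side, the libraries labelled knockout and the Dax1 knockdown, which share no control, had 6 members lower in both: Ncl, Nop58, Rrs1, Wdr12 and Wdr75 of chromosome 1, and Ubtf. These are 60% of the 10 members lower in the former and 54.5% of the 11 in the latter. Of the 538 expressed genes of chromosome 1, 52.4% were lower in both, as were 6.86% of all genes above 8 CPM. The 6.86% stands for 672 genes, of which 282 lie on chromosome 1. Ubtf is the 1 shared member on another chromosome, and the share of genes off chromosome 1 is not given here. A single shared member is thus not a result about the set. In both experiments the decrease of Ubtf was called in 1 of the 2 arms (KO1, and sh1). Heatr1 had the same arms called, at -0.48 in KO1 and -0.20 in sh1.

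With libraries scaled over all genes, 10 of 33 members had no call in any of the 11 comparisons. They were Fbl, the rRNA methyltransferase of box C/D snoRNPs, Gar1 and Nhp2, partners of Dkc1, Emg1 and Nat10, which methylate and acetylate rRNA of the small subunit, Pes1, Bop1 and Nop16 of the large subunit, Gnl3, the GTPase nucleostemin, and Mybbp1a. None of them lies on chromosome 1 or 19. The share of all features without a call is not given here, so the count has no background. These 10 were picked for having no call, which by itself holds their changes small where replicates were close. Their log2 fold changes ran from -0.15 (Nat10) to 0.19 (Gar1) in the libraries labelled knockout and from -0.04 (Nat10) to 0.08 (Nop16) in the Dax1 knockdown. Under GFP-TRIM66 they ran from 0.14 (Gnl3) to 1.08 (Bop1), and in the double knockdown from -0.27 (Bop1) to -0.11 (Nop16). In the Dax1 knockdown Fbl was at 416 and 439 CPM in the control, 427 and 405 with sh1, and 431 and 401 with sh2, with libraries of all 3 groups interleaved.

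A wider list of 149 other genes of the pathway was counted in the same way. In the libraries labelled knockout 23 were lower (15.4% of the list, with a background of 10.7% over all features and 13.5% over genes above 8 CPM) and 3 higher, including all 7 on chromosome 1, of which Diexf, the mouse gene of a processome protein (-0.98, SE 0.09), Ddx18, an RNA helicase (-0.76, SE 0.08), and Nifk, a nucleolar partner of Ki-67 (-0.76, SE 0.08), had the smallest p. Exosc2, of the RNA exosome (0.38), Kri1 (0.38) and Rbm34 (0.30) were higher. In the 136 genes of the list that lie off chromosomes 1 and 19, 15 were lower (11%), a share near the background. KO1 had 34 lower (22.8%, background 13.8%) and 5 higher and KO2 had 5 lower (3.36%, background 5.29%) and 3 higher. Off chromosomes 1 and 19, 26 were lower in KO1 (19.1%) and 1 in KO2 (0.735%). In the direct test 27 were higher in KO2 (18.1%, background 10.1%) and 4 lower. Among those 27 were Nvl, an ATPase of large subunit assembly (0.80, SE 0.10), and Noc3l (0.66, SE 0.10). Diexf went the other way (-0.9998, SE 0.11), with a log2 fold change of -1.48 in KO2, and so did Rrp7a on chromosome 15 (-0.96, SE 0.09), which was higher in KO1 by 0.62. The median over the 403 expressed genes of chromosome 15 was 0.27 in KO1, -0.02 in KO2 and -0.30 for KO2 against KO1.

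In the Dax1 knockdown 29 of the 149 were lower (19.5%, background 17.8%) and 15 higher (10.1%, background 16.8%). Nvl, on chromosome 1 (-0.64, SE 0.05), Senp3, a SUMO protease of the nucleolus (-0.28, SE 0.04), and Npm3, a relative of Npm1 on chromosome 19 (-0.36, SE 0.05), had the smallest p among those lower. Ebna1bp2 (0.17), Lsg1 (0.19) and Ppan (0.17), of the large subunit, were higher. With sh1, 45 were lower (30.2%, background 21.2%) and 12 higher (8.05%, background 22.3%). Of the 136 off chromosomes 1 and 19, 33 were lower with sh1 (24.3%), a share nearer the background. With sh2, 10 of the 149 were lower (6.71%, background 12.5%) and 21 higher (14.1%, background 12.5%). Directly, 50 were higher with sh2 (33.6%, background 18.2% over all features and 23.3% over genes above 8 CPM) and 2 lower. Off chromosomes 1 and 19, 43 were higher (31.6%). Senp3 (0.59, SE 0.04), Nol6 (0.33, SE 0.05) and Rrn3, the initiation factor of RNA polymerase I (0.30, SE 0.05), had the smallest p of the 50, and Rrp8 (-0.29, SE 0.06) and Exosc3 (-0.21, SE 0.07) were the 2 lower. Under GFP-TRIM66 139 of 149 lay above 0 (60.5% of genes above 8 CPM), and in the double knockdown 125 lay below 0 (54.6% of genes above 8 CPM), with 0 calls by edgeR in both.

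Myc and Mycn, which encode the transcription factors best known for driving this pathway, were measured with 5 others of the MYC network. In the mean of the libraries labelled knockout Myc fell by 0.36 (SE 0.08, adjusted p = 0.014) and Mycn rose by 0.94 (SE 0.11, adjusted p = 0.00027). Mycn was at 258 CPM in KO1 and 112 in KO2, beside 88.5 in WT, and neither gene was called in KO2 (adjusted p = 0.064 for Myc and 0.0905 for Mycn). For Mycn the lines differed (-1.20, SE 0.12, adjusted p = 0.00019). In the Dax1 knockdown Myc was at -0.02 (adjusted p = 0.782) and Mycn rose with sh1 (0.47, SE 0.05, adjusted p = 4.1e-09) and was at 0.03 with sh2. Mycn was thus higher in KO1 and sh1. In these arms more members were called lower, but so were more of all features. The shares were 13.8% in KO1 and 5.29% in KO2, and 21.2% with sh1 and 12.5% with sh2. The part of Mycn was not tested. In the Dax1 knockdown Mga (-0.46, SE 0.05, adjusted p = 6e-09), Mxi1 (-0.60, SE 0.07, adjusted p = 3.1e-07), which lies on chromosome 19, and Mycl (-0.36, SE 0.09, adjusted p = 0.0027) fell. Under GFP-TRIM66 the log2 fold change of Myc was 1.79 (SE 0.77, adjusted p = 0.302) and that of Mycn -0.02 (SE 0.55, adjusted p = 0.986).

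Levels in the 4 control groups, which come from separately scaled tables and are set side by side only as a description, were lowest in GFP-EV for 26 of 33 members, in CTR-Dax1-Dux-KD for 4 and in WT of the knockout experiment for 3. Reads of some members cannot be parted from neighbours or copies, since the strand setting of the counting is not given in the sources used here. Nop56, Dkc1, Nhp2, Emg1, Nat10, Bop1, Wdr12, Gnl3 and Mybbp1a overlap another protein-coding gene in the annotation, and Fbl has 1 pseudogene named after it.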

How the data were processed

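RNA-seq of 20 libraries was analysed, and 9 ChIP-seq samples were not used here. The authors deposited raw read counts per gene and transposable element, per the file headers, in 1 table for each of 4 experiments. The submitters' processing notes name HISAT2 2.1.0, Cufflinks 2.2.1 and build mm10. The counting tool and its strand setting were not given in the sources used here. From these counts, genes were filtered (filterByExpr), scaled (TMM) and tested with edgeR 4.0.16 (R 4.3.3) by its quasi-likelihood F test, each experiment alone, with Benjamini-Hochberg adjustment over 14387 to 15086 features. Hairpins or lines shared 1 fit with their control. CPM uses the TMM-scaled library size. A second scaling was computed within each chromosome, with gene positions from RefSeq GRCm38.p6 (24274 genes placed). Alternatives were DESeq2 1.42.0, its size factors, no filter, genes without elements, a replicate block, 1 fit of all libraries and leaving out each library. The fits were tested on simulated data. Counts from different tables were not compared by a test, other than in the fit of all 20 libraries. The members, the wider list and the marker lists were chosen with earlier results of these data known. Any member could be named, and from the wider list up to 3 called genes with the smallest p in each direction.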

Additional observations from a re-analysis of the deposited data

Results flagged for a closer look

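Members whose change differed between the 2 lines labelled knockout, or between the 2 hairpins, by a direct test in edgeR's 3-group fits are given as the log2 difference. Between KO2 and KO1, Heatr1 differed by 0.43 and Bms1 by 0.31, both higher in KO2 in 2 of 2 libraries. Between sh2 and sh1, each of the following was higher with sh2 in 2 of 2 libraries. Of the RNA polymerase I genes, Ubtf differed by 0.43 and Polr1b by 0.13. Of the snoRNP genes, Nop58 differed by 0.33, Dkc1 by 0.27, Rrp9 by 0.15, Nop10 by 0.15, Nolc1 by 0.13 and Nop56 by 0.13. Of the small subunit genes, Wdr75 differed by 0.24, Heatr1 by 0.23, Wdr43 by 0.17 and Nop14 by 0.16. Of the large subunit genes, Wdr12 differed by 0.21 and Rrs1 by 0.15, and Ncl differed by 0.18. The values of Ncl, Wdr75, Wdr12 and Rrs1 lost their call when each chromosome was scaled on its own genes, as did that of Bms1.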

How the results depend on the processing

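Scaled within each chromosome, members called lower were 5 in the knockout mean, 0 in KO2, 5 in the Dax1 knockdown and 0 with sh2. The direction turned there, by construction of a scaling that removes each chromosome's shift, for Nop58 (0.0012) and Rrs1 (0.021) in the knockout mean, Rrs1 (0.061) and Ncl (0.0034) in KO1, Nop58 (0.056) in KO2, Nop58 (0.0076), Nolc1 (0.13), Rrp12 (0.12), Rrs1 (0.0602) and Ncl (0.012) in the Dax1 knockdown, Nolc1 (0.071), Rrp12 (0.14) and Rrs1 (0.049) with sh1, and Rrp12 (0.11), Wdr12 (0.0029) and Ncl (0.0396) with sh2.

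In 1 fit of all 20 libraries, members lower were 4 in the knockout mean, 5 in KO1 and 0 in KO2, the Dax1 knockdown, sh1 and sh2. Members higher were 17 under GFP-TRIM66 (13.4% of all features), and 0 for KO2 against KO1, the Dax1 knockdown, sh1, sh2 and sh2 against sh1. That fit shares 1 spread (biological coefficient of variation 0.161) between experiments whose own values were 0.0392 to 0.283. With no filter, KO1 had 1 higher, KO2 against KO1 had 1 lower and sh1 had 0 higher. DESeq2 called 2 higher under GFP-TRIM66, 0 higher with sh1 and 2 lower with sh2. Most of these counts have no share of all features beside them, and the cause was not tested.

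Whether same-numbered libraries varied together differed between the groups. In the knockout experiment the correlations of their deviations were 0.165 (WT with KO1), 0.493 (WT with KO2) and 0.083 (KO1 with KO2). The Dax1 knockdown gave low values, 0.054, -0.018 and 0.170, as did the double knockdown, 0.035. For GFP-EV with GFP-TRIM66 the value was -0.669, so there libraries with opposite numbers varied together. With a replicate block KO1 had 1 higher, and KO2 against KO1 had 6 higher and 1 lower (shares of all features are not given here). A crossed pairing for GFP-TRIM66, chosen after seeing the data, gave 19 higher (14.4% of all features).

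Leaving out each library gave these ranges of members lower and higher: 4 to 17 and 0 to 2 in the knockout mean, 4 to 16 and 0 to 4 in KO1, 1 to 14 and 0 to 1 in KO2, 0 to 5 and 0 to 8 for KO2 against KO1, 0 to 0 and 0 to 10 under GFP-TRIM66, 6 to 12 and 1 to 4 in the Dax1 knockdown, 11 to 13 and 0 to 1 with sh1, 1 to 4 and 2 to 6 with sh2, 0 to 0 and 7 to 15 for sh2 against sh1, 0 to 29 and 0 to 0 in the double knockdown, and 0 to 1 and 0 to 0 for the difference between knockdowns. Where an arm kept 1 library, it was assumed to vary like the others. The share of all features called moved with the library left out as well, so these ranges are not a result about the members.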
